A study of Mus musculus with 11 samples.

Results

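The genes described here are 9 regulators of olfactory receptor choice: Kdm1a, Ehmt1, Ehmt2, Lbr, Cbx5, Smchd1, Eif2ak3, Atf5 and Ddit3. They were chosen by symbol for their known roles in heterochromatin, the nuclear lamina and the unfolded protein response, and they are 9 of the 24421 entries of the count table. Transcript levels were measured by RNA-seq of the whole main olfactory epithelium (MOE), the nasal tissue that holds the olfactory sensory neurons (OSNs). The mice carried the cluster from Taar2 to Taar9, which encodes the olfactory trace amine-associated receptors (TAARs), on both chromosomes (wild type, 3 libraries), on 1 chromosome (heterozygous, 4 libraries) or on neither (homozygous, 4 libraries). The comparison sets the transcripts of the machinery that selects and stabilizes a receptor side by side in mice with and without a whole receptor family. According to the paper, OSNs that express TAARs are only a very small share of the whole MOE. A change confined to them would therefore be diluted in these libraries, and levels here are mostly those of other cells. All libraries were labelled as C57BL/6 pups of postnatal day 1 to 2, while the reporting part of the study describes an older age and a background mixed with 129 for this line, which was not settled here. Animals of both sexes were used for this line, and the sex behind each library is not given in the sources used here. The deletion also removed TAAR enhancer 2, which lies inside the cluster, and left TAAR enhancer 1 in place. The labels do not say that each library came from a separate animal, so p-values measure the spread between these samples, which may be technical.

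Each OSN expresses 1 receptor allele, and the silent receptor genes are packed into heterochromatin marked by methylated histone H3 lysine 9. The current model holds that the demethylase LSD1 opens the chosen allele, and that the receptor protein, once made, triggers the unfolded protein response in the endoplasmic reticulum through the kinase PERK. PERK signalling favours translation of the transcription factor ATF5, and adenylyl cyclase 3, which appears next, is linked to the shutdown of LSD1 and the fixing of the choice. Much of this loop works through translation and phosphorylation, which transcript levels do not measure.

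The libraries held 9239866 to 14632525 counts, and levels are in CPM, counts per 1000000 counts of a library, with library totals scaled by TMM, a method that allows for genes taking unequal shares of a library. The labels were checked by the summed counts of the 14 olfactory Taar genes, which were 87 to 119 in wild type, 31 to 96 in heterozygous and 1 to 3 in homozygous libraries. In homozygous replicate 2 the ribosomal entry Rn45s took 25.8% of the counts, and 0.0848% to 0.786% in the other 10 libraries. Within the 11 libraries, the sign of the first principal component, which was computed without the 9 genes and held 46.3% of the variance, split each genotype. Replicates 1 and 2 of the wild type and of the homozygous mice, with replicates 3 and 4 of the heterozygous mice, are called library set 1 below, and the other 5 libraries set 2. The sets come from the data, not from a label. Markers of mature OSNs (12 of 12 listed genes tested, Omp and Cnga2 among them) summed to 1499 to 2765 CPM, so the labelled tissue was present in every library. In such bulk tissue, fewer cells of a type and less RNA per cell cannot be told apart.

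No regulator gene passed the test between genotypes. For each mutant genotype against wild type, homozygous first, and for homozygous against heterozygous MOE, 0 of 9 passed an adjusted p of 0.05 (edgeR's quasi-likelihood test, Benjamini-Hochberg adjustment over 16574 genes), beside a background of 0% of all genes in each comparison. At an unadjusted p under 0.05 the count of the 9 was also 0 in each, beside 3.02%, 2.24% and 0.561% of all genes, which are 500, 372 and 93 genes. DESeq2 called 8, 3 and 2 genes of the table, and 0 of the 9. Nor were the values of any of the 9 separate between genotypes: 0 of 9 had non-overlapping levels, beside 4.99% of all genes for homozygous and wild type, 2.51% for heterozygous and wild type and 0.597% for homozygous and heterozygous libraries. Over the 9, the median log2 fold change, homozygous against wild type, was 0.03, and that over all genes tested was 0.02. With the replicate number as a block, in a fit of the homozygous and wild type libraries only, 39 genes of the table passed the adjusted threshold, and 0 of the 9 were among them.

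Markers of skeletal muscle, a tissue outside the epithelium (16 of 16 tested), were unevenly spread over the genotypes. They summed to 15.9 to 83.9 CPM in wild type, 26.5 to 2152 CPM in heterozygous and 40.0 to 1002 CPM in homozygous libraries, and 5 of the 8 mutant libraries were above all wild type ones. With their level as a covariate 0 of the 9 passed the test and 0 had an unadjusted p under 0.05 in any comparison. Several log2 fold changes in homozygous against wild type MOE were then farther from 0, at 0.34 for Ddit3 (0.17 without the covariate), 0.29 for Atf5 (0.12) and 0.42 for Ehmt2 (0.27).

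The mature OSN markers, Adcy3 and Rtp1 included, were likewise set beside the 9 by genotype. They summed to 1611 to 2765 CPM in wild type, 1664 to 2286 CPM in heterozygous and 1499 to 1968 CPM in homozygous libraries, ranges that overlap. In homozygous against wild type MOE 12 of 12 had a log2 fold change below 0, beside 47.2% of all genes tested. Their median was -0.32. Of the 12, 0 passed the adjusted test and 2 had an unadjusted p under 0.05 (Slc17a6 and Umodl1), beside 3.02% of all genes. Against wild type, heterozygous MOE also had 12 of 12 below 0, with a median of -0.19 and 0 at that p. For homozygous against wild type MOE without wild type replicate 1, the library with the highest sum, 9 of 12 were below 0. The median was then -0.13 and 0 had an unadjusted p under 0.05. Without wild type replicate 3 the median was -0.47 and 9 of 12 were under that p, and in library set 1 alone -0.56 and 8 of 12. In each of these fits 0 passed the adjusted test. With the marker level as a covariate 0 of the 9 regulators passed, and the log2 fold change in that comparison was 0.30 for Atf5 (0.12 without it), -0.38 for Cbx5 (-0.25) and -0.15 for Lbr (-0.05).

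**Figure D1:**
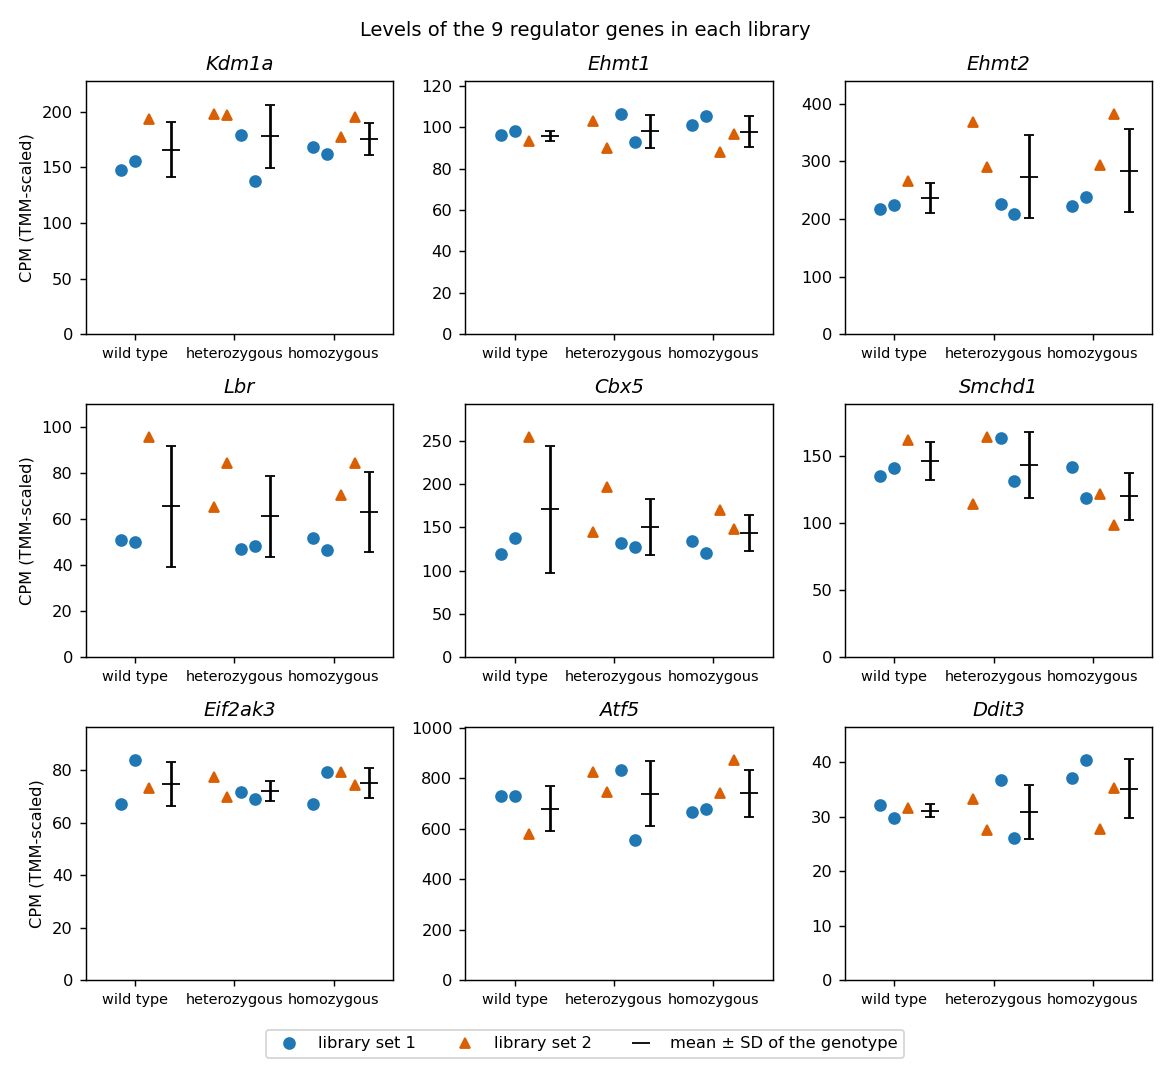
TMM-scaled CPM (vertical axes, from 0) of each of the 9 regulator genes in the 11 libraries, by genotype; circles are library set 1, triangles set 2, and the black bars give the mean ± SD of the genotype. The genotypes overlap for every gene, whereas the triangles lie above all circles for Ehmt2, Lbr and Cbx5.

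Kdm1a encodes LSD1, the demethylase that removes repressive and activating methyl groups from histone H3 and is needed for receptor activation. The gene lies on chromosome 4 (136550540 to 136602723, minus strand, GRCm38). Its level was 148, 155 and 194 CPM in wild type replicates 1 to 3, 198, 197, 179 and 137 CPM in heterozygous replicates 1 to 4, and 168, 162, 177 and 195 CPM in homozygous replicates 1 to 4. Heterozygous libraries held both the lowest and the highest values, and all homozygous values lay inside their range. The log2 fold change was 0.08 ± 0.158 (SE) in homozygous against wild type MOE, with a 95% confidence interval of -0.26 to 0.43 (edgeR, unadjusted p = 0.608). A fall of the mean of Kdm1a to under 0.834 of the wild type level, or a rise over 1.35-fold, lay outside that interval. Of the 19 genes on the list of histone demethylases and LSD1 partners, which holds the CoREST scaffolds Rcor1 to Rcor3 and the deacetylases Hdac1 and Hdac2, 0 passed the test in any comparison. Their median log2 fold change was 0.03 in homozygous and 0.03 in heterozygous against wild type MOE, with the widest homozygous differences at -0.39 for Kdm1b and 0.32 for Rcor2.

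Ehmt1 and Ehmt2 encode GLP and G9a, partner methyltransferases that place methyl groups on histone H3 lysine 9. Ehmt1 (chromosome 2, 24789928 to 24919614, minus strand) was at 96.0, 98.3 and 93.2 CPM in wild type, 103, 89.7, 106 and 93.0 CPM in heterozygous and 101, 105, 88.2 and 96.8 CPM in homozygous libraries. This was the steadiest of the 9, with a CV of 6.25% over the 11 libraries, where counting error alone gives 2.96%. Its estimated biological CV of 13.3% ranked at percentile 1.09 of all genes tested, whose median was 22.7%. The log2 fold change of Ehmt1 in homozygous against wild type MOE was 0.03 ± 0.115 (SE), with a 95% confidence interval of -0.22 to 0.28.

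Ehmt2 (chromosome 17, 34898469 to 34914052, plus strand) varied more. It was at 218, 225 and 266 CPM in wild type, 368, 290, 226 and 209 CPM in heterozygous and 223, 238, 294 and 382 CPM in homozygous libraries. The 2 homozygous libraries above all wild type ones were replicates 3 and 4, and the 2 heterozygous ones were replicates 1 and 2, all of library set 2. Its log2 fold change was 0.27 ± 0.231 (SE) in homozygous against wild type MOE (edgeR, unadjusted p = 0.272, adjusted p = 0.996) and 0.21 ± 0.231 in heterozygous against wild type MOE (unadjusted p = 0.381). Without homozygous replicate 4 the former was 0.09, and without heterozygous replicate 1 the latter was 0.03.

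Cbx5 encodes HP1 alpha, which binds methylated lysine 9 and compacts heterochromatin. The gene (chromosome 15, 103191544 to 103239816, minus strand) was at 120, 138 and 254 CPM in wild type, 144, 197, 132 and 127 CPM in heterozygous and 135, 121, 170 and 148 CPM in homozygous libraries. Wild type replicate 3 stood above the other 10 libraries. The log2 fold change in homozygous against wild type MOE was -0.25 ± 0.251 (SE), with a 95% confidence interval of -0.80 to 0.30 (edgeR, unadjusted p = 0.339). Its direction rested on that library: without wild type replicate 3 it was 0.15, and in heterozygous against wild type MOE it went from -0.19 to 0.22. Of 18 measured genes on the list of heterochromatin writers and readers, 0 passed the adjusted test and 0 had an unadjusted p under 0.05 in any comparison. The list median was 0.02 in homozygous against wild type MOE, and the gene farthest from 0 was Suv39h2, which encodes a lysine 9 methylating enzyme, at -0.47.

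Lbr encodes the lamin B receptor, an inner nuclear membrane protein that tethers heterochromatin to the nuclear edge and is known to be absent from mature OSNs, in whose nuclei receptor genes gather in the interior. The gene (chromosome 1, 181815335 to 181843046, minus strand) was at 50.7, 49.9 and 95.5 CPM in wild type, 65.3, 84.0, 46.7 and 48.3 CPM in heterozygous and 51.6, 46.6, 70.2 and 84.1 CPM in homozygous libraries. In each genotype the set 2 libraries were the higher ones. In homozygous against wild type MOE the log2 fold change was -0.05 ± 0.293 (SE), with a 95% confidence interval of -0.69 to 0.59. Lbr had the widest spread of the 9, with a CV of 28.4%. Without wild type replicate 3, its log2 fold change was 0.33 in homozygous and 0.28 in heterozygous against wild type MOE, and neither had an unadjusted p under 0.05. Of its 51-base exon stretches 8.37% also occur in another gene, 390 of 409 of them in Dnah14, an exon of which overlaps Lbr on the opposite strand by 440 bases, and the strand setting of the counting was not stated. Of 15 nuclear envelope and lamina genes 0 passed the test in any comparison. Their median log2 fold change was 0.07 in homozygous and 0.07 in heterozygous against wild type MOE.

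Smchd1 encodes a non-canonical SMC protein known for silencing on the inactive X chromosome and at clustered gene families. The gene (chromosome 17, 71344489 to 71475343, minus strand) was at 135, 141 and 162 CPM in wild type, 115, 164, 163 and 132 CPM in heterozygous and 142, 119, 122 and 98.7 CPM in homozygous libraries. In 3 of 4 homozygous libraries the level was below every wild type library, and 1 lay inside the wild type range. Wild type libraries had a mean of 146 ± 14.02 CPM (SD, n = 3). The heterozygous mean was 144 ± 24.5 CPM (SD, n = 4), and the homozygous one was 120.2 ± 17.6 CPM (SD, n = 4).

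Smchd1 had the lowest p of the 9 in homozygous against wild type MOE, at a log2 fold change of -0.28 ± 0.165 (SE) and a 95% confidence interval of -0.64 to 0.08 (edgeR, unadjusted p = 0.112, adjusted p = 0.996). In homozygous against heterozygous MOE the log2 fold change was -0.26 ± 0.153 (SE; unadjusted p = 0.122, edgeR). In library set 1 alone the homozygous against wild type value was -0.09 ± 0.146 (SE). Without heterozygous replicate 1 the unadjusted p against heterozygous MOE was 0.0408 (edgeR), the only one of the 9 genes' p-values under 0.05 among all settings tried. On the list of SMCHD1, DNA methylation and chromosome architecture genes, 0 of 17 passed the test and 0 had an unadjusted p under 0.05 in any comparison. There, 14 of 17 log2 fold changes were below 0 in homozygous and 15 of 17 in heterozygous against wild type MOE, comparisons that share the wild type libraries, beside 47.2% and 49.6% of all genes tested. The medians were -0.14 and -0.10. In library set 1 alone the counts were 10 of 17 in both, with medians of -0.06 and -0.02, and without heterozygous replicate 1 the heterozygous count was 11 of 17, with a median of -0.02. The widest difference on the list was that of Lrif1, which encodes a partner of SMCHD1. It was at 23.0, 22.7 and 61.2 CPM in wild type, 24.3, 47.9, 20.8 and 25.0 CPM in heterozygous and 23.9, 20.4, 28.9 and 11.7 CPM in homozygous libraries. Wild type replicate 3 and heterozygous replicate 2, both of set 2, were the highest. Its log2 fold change in homozygous against wild type MOE was -0.75 ± 0.412 (SE; edgeR, unadjusted p = 0.0957, adjusted p = 0.996), and without wild type replicate 3 it was -0.10.

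Eif2ak3 encodes PERK, the kinase of the endoplasmic reticulum membrane that phosphorylates eIF2 alpha. The gene (chromosome 6, 70844515 to 70905245, plus strand) was at 67.2, 84.0 and 73.5 CPM in wild type, 77.5, 69.9, 71.7 and 69.1 CPM in heterozygous and 67.1, 79.5, 79.4 and 74.6 CPM in homozygous libraries. The means of the genotypes were 74.9, 72.1 and 75.2 CPM, with the lowest and highest wild type libraries spanning all heterozygous values. The log2 fold change of 0.0049 ± 0.121 (SE) in homozygous against wild type MOE had a 95% confidence interval of -0.26 to 0.27, and its sign turned with several settings. Its biological CV of 13.7% was at percentile 2.09 of all genes. Some 5.66% of its 51-base exon stretches also occur in Gm43292, an entry on the opposite strand.

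Atf5 encodes the transcription factor whose translation rises under PERK signalling and which drives OSN maturation. The gene (chromosome 7, 44812256 to 44816658, minus strand) was at 731, 731 and 578 CPM in wild type, 824, 745, 832 and 555 CPM in heterozygous and 668, 677, 742 and 872 CPM in homozygous libraries. The lowest values were those of heterozygous replicate 4 and wild type replicate 3. Its log2 fold change was 0.12 ± 0.183 (SE) in homozygous against wild type MOE, with a 95% confidence interval of -0.28 to 0.52. Without wild type replicate 3 it was 0.02, and in library set 1 alone it was -0.12.

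Ddit3 encodes CHOP, a stress-induced transcription factor downstream of PERK. The gene (chromosome 10, 127290774 to 127296288, plus strand) was at 32.2, 29.7 and 31.6 CPM in wild type, 33.3, 27.5, 36.8 and 26.1 CPM in heterozygous and 37.1, 40.5, 27.8 and 35.4 CPM in homozygous libraries. In homozygous MOE, 3 of 4 libraries were above and 1 was below all wild type ones. It had the fewest counts of the 9, with 244 to 490 per library. Its log2 fold change of 0.17 ± 0.167 (SE) in homozygous against wild type MOE had a 95% confidence interval of -0.19 to 0.54 (edgeR, unadjusted p = 0.317), and without homozygous replicate 2 it was 0.09. Ddit3 is adjacent to Mars on the opposite strand, with 68 bases of exon in common.

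Of the 24 PERK and integrated stress response genes, 0 passed the adjusted test in any comparison. The median log2 fold change was 0.06 in homozygous and 0.03 in heterozygous against wild type MOE. The single gene with an unadjusted p under 0.05, beside 3.02% of all genes when homozygous libraries were set against wild type and 0.561% when set against heterozygous ones, was Ppp1r15a, which encodes GADD34, the phosphatase subunit that reverses PERK's phosphorylation of eIF2 alpha. It was at 157, 167 and 156 CPM in wild type, 173, 175, 165 and 129 CPM in heterozygous and 156, 319, 196 and 236 CPM in homozygous libraries. Homozygous replicate 2, the library with the high Rn45s share, had the top value, and homozygous replicate 1 lay inside the wild type range. The log2 fold change was 0.50 ± 0.213 (SE) in homozygous against wild type (edgeR, unadjusted p = 0.0361, adjusted p = 0.996) and 0.50 ± 0.196 (SE) in homozygous against heterozygous MOE (unadjusted p = 0.0260, adjusted p = 1), and without homozygous replicate 2 it was 0.28 in both. Its unadjusted p stayed under 0.05 in 12 of 24 alternative settings in the former comparison and in 18 of 24 in the latter. The level of Atf4, the factor that PERK induces alongside ATF5, had a log2 fold change of 0.17 ± 0.135 (SE) in homozygous against wild type MOE. Among the 24 genes of the IRE1 and ATF6 branches, the arms of the unfolded protein response that PERK does not serve, 0 passed the test in any comparison, and the median log2 fold change in homozygous against wild type MOE was -0.04 (0.02 with library set as a covariate). On the list of receptor feedback and export genes, 0 of 7 passed the test in any comparison, and that median was -0.02 (0.02 with library set as a covariate). The values spread to both sides of it, at -0.16 ± 0.193 (SE) for the adenylyl cyclase Adcy3, -0.25 ± 0.183 and -0.32 ± 0.230 for the receptor-transporting proteins Rtp1 and Rtp2, and 0.21 ± 0.179 and 0.43 ± 0.453 for the transcription factor Lhx2 and its cofactor Ldb1. Ldb1 was at 314 to 359 CPM in set 1 and 605 to 998 CPM in set 2. The highest value on this list was 0.20 with library set as a covariate. It was 0.11 without homozygous replicate 4 and 0.88 without wild type replicate 3.

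**Figure D2:**
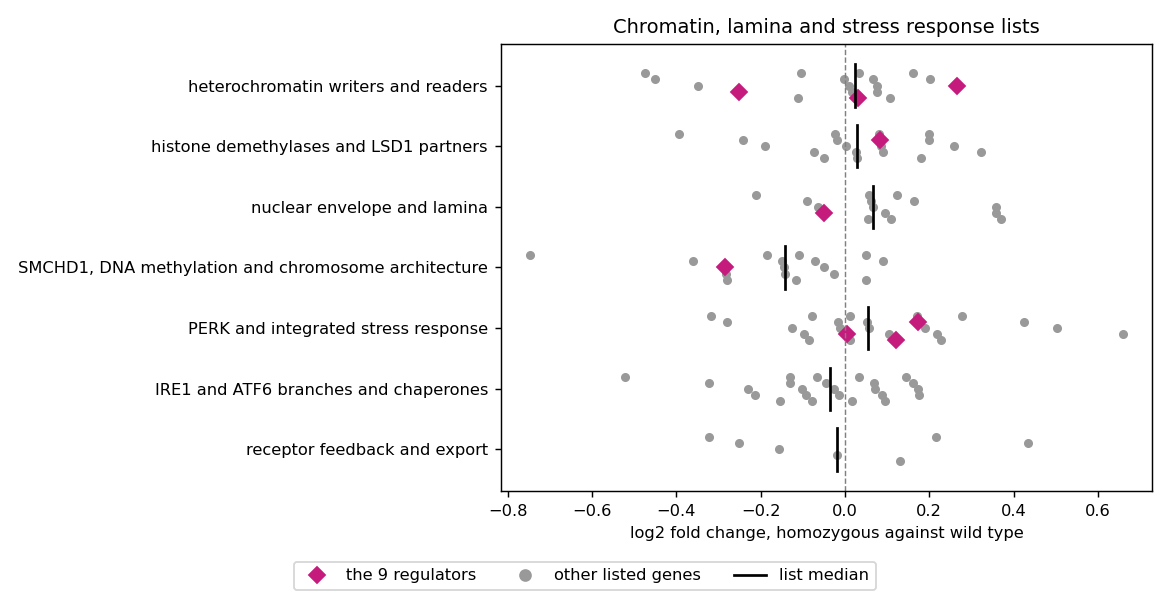
Log2 fold change in homozygous against wild type MOE (horizontal axis, edgeR) of every tested gene of the 7 pathway lists (rows); diamonds are the 9 regulator genes, grey circles the other listed genes and vertical bars the list medians. The medians lie between -0.14, for the list that holds Smchd1, and 0.07, for the nuclear envelope list, and no gene passed the adjusted threshold.

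In MOE with 1 intact cluster, the log2 fold changes of the 9 against wild type ran from -0.19 (Cbx5) to 0.21 (Ehmt2). Kdm1a was at 0.10 ± 0.158 (SE) and Ehmt1 at 0.03 ± 0.115. Lbr was at -0.10 ± 0.293, Smchd1 at -0.03 ± 0.165 and Eif2ak3 at -0.06 ± 0.121. Atf5 was at 0.12 ± 0.183 and Ddit3 at -0.01 ± 0.167, so that each of the 9 lay within 1 SE of 0. Between the mutant genotypes, homozygous against heterozygous, the values were near 0 for Ehmt2 (0.06), Lbr (0.05), Eif2ak3 (0.06), Cbx5 (-0.06), Kdm1a (-0.02), Ehmt1 (-0.0017) and Atf5 (0.0019). Farther from 0 were Ddit3 at 0.18 ± 0.154 (SE) and Smchd1 at -0.26 ± 0.153. The widest 95% confidence interval in this comparison was that of Lbr, -0.55 to 0.64, and the narrowest that of Ehmt1, -0.23 to 0.23.

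**Figure D3:**
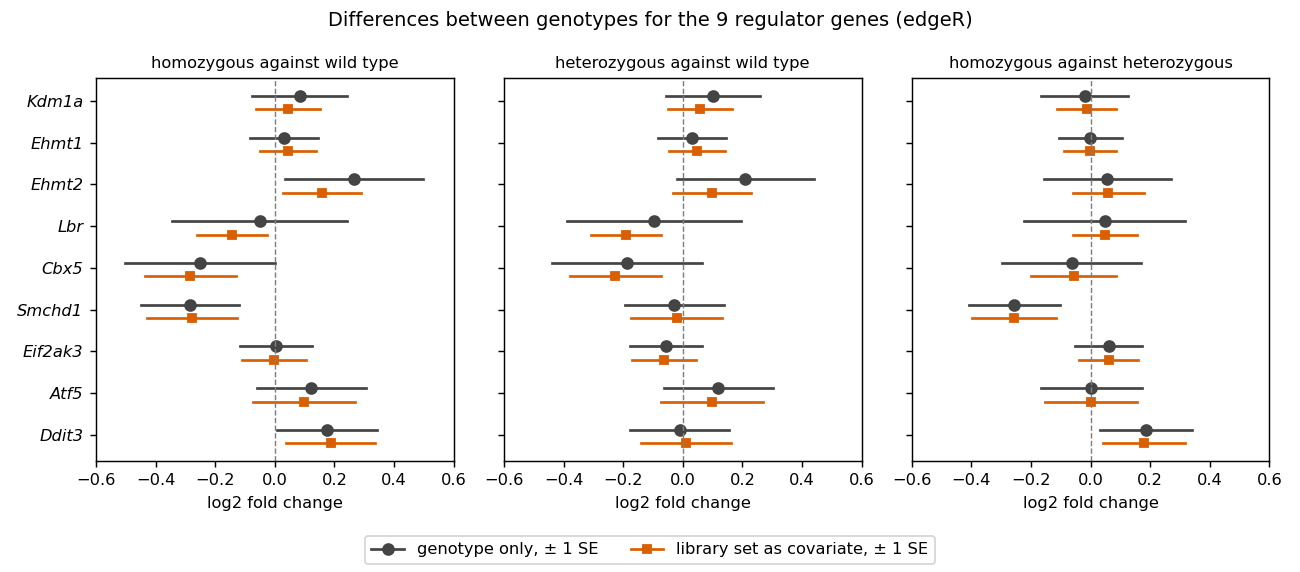
Log2 fold change (horizontal axes) ± 1 SE of the 9 regulator genes in the 3 genotype comparisons (panels), from the edgeR fit of genotype only (circles) and with library set as a covariate (squares). The SE of Lbr in homozygous against wild type MOE was 0.293 in the former and 0.116 in the latter, and no gene had an unadjusted p under 0.05 in either.

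For some of the 9 genes, levels followed the library set. The level of Lbr was 46.6 to 51.6 CPM in the 6 libraries of set 1 and 65.3 to 95.5 CPM in the 5 of set 2. That of Ehmt2 was 209 to 238 CPM in set 1 and 266 to 382 CPM in set 2, and that of Cbx5 120 to 138 CPM in set 1 and 144 to 254 CPM in set 2. These 3 of the 9 did not overlap between the sets, nor did 26.9% of all genes tested, so the share of the 9 was near that of the table. The shares are not strictly alike, since the other genes made the split and the 9 were left out of it. Kdm1a overlapped slightly, with 137 to 179 CPM in set 1 and 177 to 198 CPM in set 2, and the other 5 genes overlapped broadly. The markers of horizontal basal cells (5 of 5 tested, Krt5 and Krt14 among them) moved the opposite way, with sums of 176 to 283 CPM in set 1 and 138 to 171 CPM in set 2. Those of respiratory ciliated cells (6 of 7 tested, Foxj1 among them) summed to 578 to 829 CPM in set 1 and 394 to 511 CPM in set 2, and none of these defining markers was at 0. Of the single markers, 2 of 5 basal ones (Krt14 and Itga6) and 3 of 6 ciliated ones (Dnah5, Dnah9 and Tekt1) were higher in every set 1 library, and the others overlapped. Ccdc39, at 55.4 to 62.6 CPM in set 1 and 42.4 to 91.4 CPM in set 2, had its highest value in set 2, as did Icam1 among the basal markers. Their part in the levels of Ehmt2, Lbr and Cbx5 was not tested.

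With library set as a covariate, the SE of Ehmt2 in homozygous against wild type MOE went from 0.231 to 0.130, and its log2 fold change was 0.16. That of Cbx5 was -0.28 ± 0.153 (SE; edgeR, unadjusted p = 0.0888) and that of Smchd1 -0.28 ± 0.152 (SE; edgeR, unadjusted p = 0.0930), and the adjusted p of both was 0.712. The count with an unadjusted p under 0.05 remained 0 of 9 in each comparison, while that over all genes was 1132, 754 and 227 in the 3 comparisons in the order above. The sets were drawn from the levels of all genes but the 9, so these counts over all genes are not independent of the covariate.

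**Figure D4:**
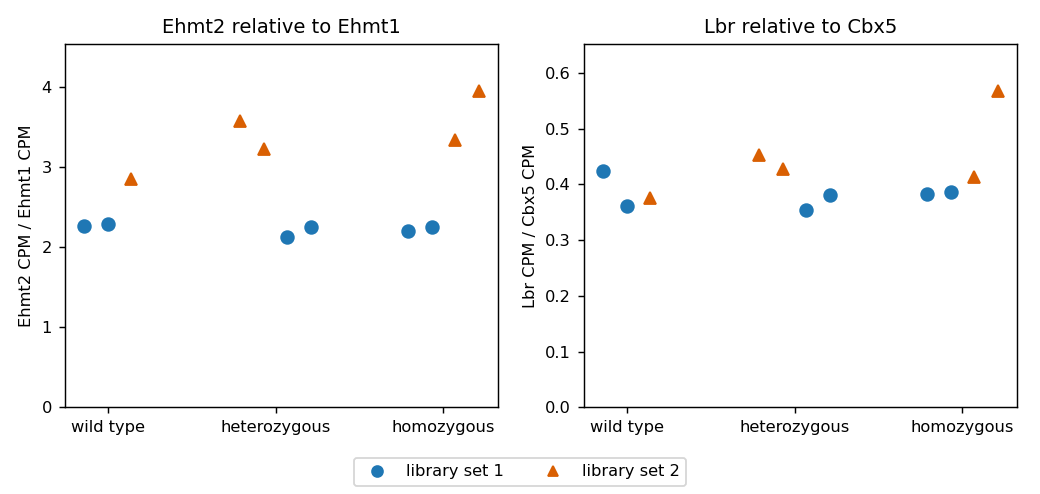
Ratio of the CPM of Ehmt2 to that of Ehmt1 (left) and of Lbr to that of Cbx5 (right) in each library (vertical axes, from 0), by genotype, with library set 1 as circles and set 2 as triangles. The Ehmt2 ratio is 2.13 to 2.29 in set 1 and 2.86 to 3.95 in set 2, whereas the Lbr ratio overlaps between the sets.

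Within the pair of methyltransferases, the ratio of the CPM of Ehmt2 to that of Ehmt1 was 2.13 to 2.29 in set 1 and 2.86 to 3.95 in set 2. By genotype, wild type libraries had a mean of 2.47 ± 0.335 (SD, n = 3), the heterozygous ones 2.80 ± 0.717 (SD, n = 4) and the homozygous ones 2.94 ± 0.852 (SD, n = 4), differences smaller than the SD within a mutant genotype. Lbr and Cbx5, which encode partners in tethering heterochromatin, kept a ratio of 0.355 to 0.567 over the 11 libraries, with the top value in homozygous replicate 4. The ratio of Ddit3 to Eif2ak3 was 0.350 to 0.553, and that of Atf5 to Ddit3 16.7 to 27.0.

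Of the 9 promoters, all matched in RefSeq, those of the 3 genes that differed between the library sets are shown beside that of Eif2ak3, which did not. Each is the 150 bases before the RefSeq start that hold no annotated exon, 5′ to 3′ on the strand of the gene (GRCm38.p6). Capitals mark the CCAAT box (CCAAT, or ATTGG on the other strand) and the GC box (GGGCGG, or CCGCCC). The positions are chr17:34898319-34898468 (plus strand), chr1:181842402-181842551 (minus), chr15:103239853-103240002 (minus) and chr6:70844365-70844514 (plus), and that of Lbr lies inside the GENCODE gene, whose first exon starts further upstream.
Ehmt2: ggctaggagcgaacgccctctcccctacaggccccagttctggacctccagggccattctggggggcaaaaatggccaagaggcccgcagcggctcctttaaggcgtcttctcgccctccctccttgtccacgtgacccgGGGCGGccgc
Lbr: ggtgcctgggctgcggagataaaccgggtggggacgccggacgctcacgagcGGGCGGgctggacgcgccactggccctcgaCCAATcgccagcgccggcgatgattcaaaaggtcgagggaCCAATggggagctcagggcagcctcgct
Cbx5: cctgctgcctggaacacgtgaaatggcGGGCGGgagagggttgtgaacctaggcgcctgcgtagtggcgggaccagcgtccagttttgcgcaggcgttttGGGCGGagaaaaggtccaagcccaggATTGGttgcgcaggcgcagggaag
Eif2ak3: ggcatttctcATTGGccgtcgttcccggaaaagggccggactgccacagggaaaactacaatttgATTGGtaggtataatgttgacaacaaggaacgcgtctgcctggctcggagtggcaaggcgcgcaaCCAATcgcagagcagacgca

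Over 300 bases around the start (250 before, 50 after), searched on both strands, the CCAAT box was found in 5 of the 9 promoters (Kdm1a, Lbr, Cbx5, Eif2ak3 and Ddit3) and in 37.4% of 32851 promoters. That of Eif2ak3 held 6 copies, 3 of them in the stretch above. The GC box was found in 6 of the 9 (Ehmt1, Ehmt2, Lbr, Cbx5, Smchd1 and Atf5) and in 35.7% of all. The core of the cyclic AMP response element (TGACGT) was found in that of Smchd1 and in 7.51% of all, and the C/EBP-ATF composite site (TGATGNAA), the motif bound by ATF4 and CHOP, in that of Kdm1a and in 3.97% of all. Either E2F form, TTTGGCGC (0.514% of all promoters) or TTTCGCGC (0.323%), was found in 0 of the 9. The motifs do not overlap each other by their letters in the sequences printed, and a match is a description of letters only.

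Per kilobase of the longest coding transcript, Atf5 was the most abundant of the 9, at 398 CPM per kb as a mean of the 11 libraries. Ehmt2 followed at 66.4, Kdm1a at 57.4 and Ddit3 at 36.6 CPM per kb. Smchd1 at 19.3, Lbr at 17.9, Cbx5 at 17.4, Eif2ak3 at 16.4 and Ehmt1 at 16.4 CPM per kb formed a group whose ranges over the libraries overlapped. Ehmt2 and Kdm1a, neighbours in this order, also overlapped, and the lowest Kdm1a library (45.4 CPM per kb) stood at the highest Ddit3 library (45.5 CPM per kb). Atf5 and Ehmt2 did not overlap, nor did Ddit3 and Smchd1. The order depends on the length used, since per kilobase of all merged exons Smchd1, whose annotation holds 19982 exonic bases, was lowest at 6.80 CPM per kb.

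**Figure D5:**
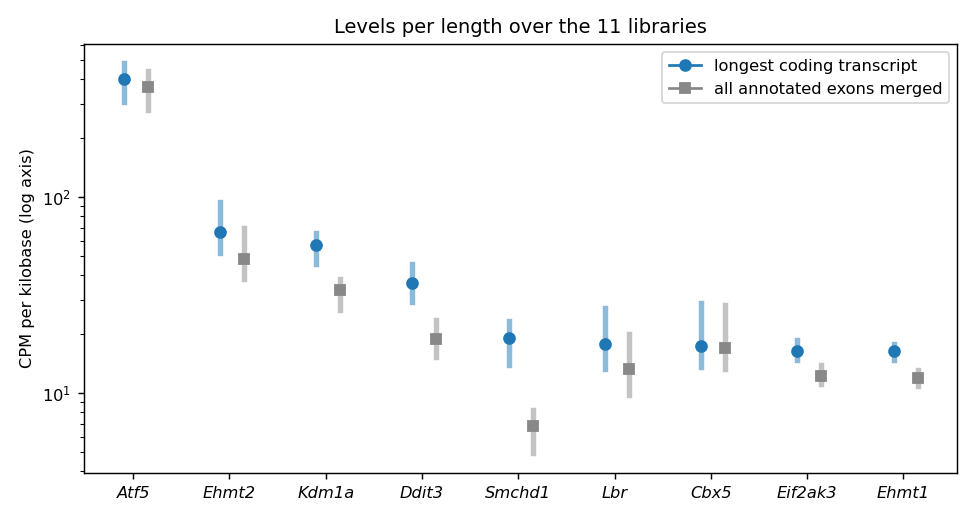
CPM per kilobase (vertical log axis) of the 9 regulator genes, as the mean (symbol) and the range over the 11 libraries (bar), per kilobase of the longest coding transcript (circles) and of all annotated exons merged (squares). Atf5 stands above the rest at 398 CPM per kb, and the 5 genes from Smchd1 to Ehmt1 overlap.

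The genes whose levels followed each regulator most closely were found by the correlation r of log2 CPM over the 11 libraries, each set's mean subtracted, among 11736 genes with a mean of at least 10 CPM. The r values are descriptions, and the libraries share depth, cell makeup and genotype. Kdm1a was most like Adcy7 (r = 0.958), Ehmt1 like Klhl29 (0.961), Ehmt2 like Tbx1 (0.972) and Lbr like Tmx2 (0.915). For Cbx5 it was Gm14420 (0.975), for Smchd1 Fmnl2 (0.989), for Eif2ak3 Pcsk6 (0.861), for Atf5 Tmcc2 (0.993) and for Ddit3 Esam (0.961). Among the 9 themselves, Ehmt1 and Ddit3 had the highest such r (0.842), followed by Cbx5 and Smchd1 (0.823), and Ehmt2 and Cbx5 the lowest (-0.832). Without subtracting the set means, r was 0.838 for Ehmt1 and Ddit3, 0.384 for Cbx5 and Smchd1 and 0.377 for Ehmt2 and Cbx5, both of which were higher in set 2, so the sign of this last pair turned with the centring. For 3 of the 9 most alike genes r was likewise much lower uncentred, at 0.0420 for Ehmt1 and Klhl29, 0.361 for Eif2ak3 and Pcsk6 and 0.614 for Lbr and Tmx2, and for the other 6 it was 0.938 to 0.993.

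Each of the 9 was also set beside the 11 cell type marker lists. Over all 11 libraries 7 of the 99 pairs of a gene and a list passed the Benjamini-Hochberg adjustment (two-sided permutation tests of Pearson's r). They were Kdm1a, Lbr and Cbx5, each with the horizontal basal and the respiratory ciliated markers, and Kdm1a with the neuronal precursor markers. The sums of both former lists did not overlap between the library sets, so no pooled r is given for these 6 pairs. Those of the neuronal precursor markers overlapped, and Kdm1a was higher where they were higher, with r = 0.763 (permutation p = 0.00315, adjusted p = 0.0445) and rho = 0.727 (permutation p = 0.0144) over 11 libraries, r = 0.523 without the 2 libraries farthest from the median marker level, and r = 0.886 in set 1 (exact permutation p = 0.0236, adjusted p = 0.334). Within set 1, the only one with 6 libraries, 0 of the 99 passed and 11 had an unadjusted p under 0.05, 2 of the 7 pairs above among them, both of Kdm1a. The smallest p that an exact permutation test of 6 libraries allows is 0.00139, and the lowest adjusted p of 0.138 is the one that a single pair at that limit gives, so no single pair could have passed there.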

How the data were processed

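RNA was extracted from the whole MOE of 3 wild type, 4 heterozygous and 4 homozygous samples and sequenced after polyA selection with a directional kit. The authors aligned the reads to GRCm38 (mm10) and deposited raw counts per gene; the submitters' processing notes name Trimmomatic (version 0.36), HISAT2 (2.1.0), featureCounts of Subread (1.6.2) and DESeq2 (1.20.0). The annotation, strand setting and treatment of reads with several positions are not given in the sources used here, which could move reads between overlapping genes. A second deposited table gives a normalised signal, the raw count of a gene divided by 1 factor per library, and was used here only to restrict the genes in 1 alternative. Both tables held 0 columns of no sample, and 27 symbols had been turned into dates.

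Counts were tested with edgeR (version 4.0.16) in R (4.3.3): TMM scaling, filterByExpr by genotype, 1 quasi-likelihood fit of genotype over all 11 libraries, and Benjamini-Hochberg adjustment over the 16574 genes kept (threshold 0.05). DESeq2 (1.42.0), other scalings, filters, covariates and each library left out were alternatives. The scripts were tested on simulated counts. Gene models were GENCODE, promoters RefSeq, and neither is known to be the annotation of the authors. The genes named are the 9, up to 5 further genes of the pathway lists per comparison with the lowest unadjusted p under 0.05, and, for each of the 9, the gene most like it; other genes named were chosen after their values were seen. The 9 genes, the lists and the tests were chosen with earlier results of these data known. Counting error gave each of the 9 a CV of 1.08% to 5.13% per library.

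Replicate numbers recur across genotypes. Deviations from the genotype means correlated at 0.326 to 0.415 in the 3 same-numbered pairs of wild type and homozygous libraries, each pair also from 1 library set, at -0.379 to -0.188 for wild type and heterozygous, and at -0.585 to -0.396 for heterozygous and homozygous pairs. Differently numbered wild type and homozygous libraries of 1 set correlated at 0.243 to 0.467, so in homozygous against wild type MOE, where the block was taken as a pairing, number and set cannot be told apart.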

Additional observations from a re-analysis of the deposited data

How the results depend on the processing

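Over 24 settings, 0 of the 9 regulators passed the adjusted threshold in any comparison; of 648 values for these genes (27 log2 fold changes under 24 settings), 564 kept their sign, 84 did not, and 1 had an unadjusted p under 0.05, with the lowest adjusted p of 0.712. DESeq2 called 8, 3 and 2 genes of the table in homozygous against wild type (HO/WT), heterozygous against wild type (HE/WT) and homozygous against heterozygous (HO/HE) MOE, where edgeR called 0. With the replicate number as a block in a fit of the 2 genotypes compared, 39, 8 and 0 genes passed, and 0 when all 11 libraries were fitted with that block; homozygous and heterozygous replicates 4 have no wild type partner. The block changed no call among the 9. The count of all genes with an unadjusted p under 0.05 was 500, 372 and 93 in the edgeR fit reported and 286 to 1132, 229 to 754 and 18 to 279 over the alternatives. The 3 alternatives (library set 1 only, totals without Rn45s, and the block in 2 genotypes) were chosen after seeing the data. The log2 fold changes that changed sign, those of Ppp1r15a included, follow, and the cause was not tested. With library totals and no scaling factors the value was Kdm1a HO/WT -0.018, Ehmt1 HO/WT -0.083, Eif2ak3 HO/WT -0.11, Ehmt2 HO/HE -0.030, Lbr HO/HE -0.034, Eif2ak3 HO/HE -0.046 and Atf5 HO/HE -0.093. That setting moved the median log2 fold change of all genes from 0.015 to -0.091 in HO/WT, and the SMCHD1 list then had 17 of 17 values below 0 with a median of -0.24; under RLE scaling and totals without Rn45s the list had 14 of 17, and over all settings 10 to 17 of 17. With RLE scaling the value was Eif2ak3 HO/WT -0.0062 and Atf5 HO/HE -0.0090. With DESeq2 the value was Eif2ak3 HO/WT -0.0062 and Atf5 HO/HE -0.0081. With no filter on low counts the value was Eif2ak3 HO/WT -0.018, Ppp1r15a HE/WT -0.00058 and Atf5 HO/HE -0.015. With only the 2 genotypes compared in the fit the value was Eif2ak3 HO/WT -0.020 and Atf5 HO/HE -0.00015. With library set as a covariate the value was Eif2ak3 HO/WT -0.0031 and Ddit3 HE/WT 0.010. With the mature OSN marker level as a covariate the value was Eif2ak3 HO/WT -0.011, Ddit3 HE/WT 0.0020, Ppp1r15a HE/WT -0.025, Ehmt1 HO/HE 0.0062 and Lbr HO/HE -0.00011. With the skeletal muscle marker level as a covariate the value was Eif2ak3 HO/WT -0.0093, Ddit3 HE/WT 0.13 and Ehmt1 HO/HE 0.0078. With only the genes of the normalised table the value was Eif2ak3 HO/WT -0.0072 and Atf5 HO/HE -0.0082. With only set 1 libraries the value was Eif2ak3 HO/WT -0.047, Atf5 HO/WT -0.12, Ehmt2 HE/WT -0.024, Cbx5 HE/WT 0.0033, Smchd1 HE/WT 0.093, Atf5 HE/WT -0.077, Ddit3 HE/WT 0.024, Ppp1r15a HE/WT -0.14, Kdm1a HO/HE 0.060, Ehmt1 HO/HE 0.050 and Atf5 HO/HE -0.044. With the replicate block in a fit of the 2 genotypes the value was Eif2ak3 HO/WT -0.011, Lbr HE/WT 0.034 and Ddit3 HE/WT 0.050. With the replicate block in the fit of all libraries the value was Smchd1 HE/WT 0.034 and Ddit3 HE/WT 0.022. With library totals without Rn45s the value was Eif2ak3 HO/WT -0.0060 and Atf5 HO/HE -0.0057. With each library left out in turn, the values that changed sign ranged, in HO/WT, as Cbx5 -0.45 to 0.15, Ehmt1 -0.018 to 0.077, Eif2ak3 -0.067 to 0.096 and Lbr -0.22 to 0.33. With each library left out in turn, the values that changed sign ranged, in HE/WT, as Cbx5 -0.39 to 0.22, Ddit3 -0.10 to 0.060, Ehmt1 -0.0095 to 0.072, Eif2ak3 -0.13 to 0.036, Lbr -0.29 to 0.28, Ppp1r15a -0.038 to 0.096 and Smchd1 -0.099 to 0.067. With each library left out in turn, the values that changed sign ranged, in HO/HE, as Atf5 -0.14 to 0.063, Cbx5 -0.16 to 0.094, Ehmt1 -0.049 to 0.044, Ehmt2 -0.12 to 0.23, Kdm1a -0.15 to 0.036 and Lbr -0.12 to 0.24. The largest value that one of the 9 reached after its sign turned was 0.33, that of Lbr in HO/WT. The widest and narrowest 95% confidence intervals in HO/WT were those of Lbr (-0.69 to 0.59) and Ehmt1 (-0.22 to 0.28), which limit what these libraries can show for each gene.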
